A study of Ovis aries with 30 samples.

Results

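Genes that the transcription factor ATF4 switches on when a cell runs short of amino acids were followed in brown adipose tissue (BAT) and thyroid tissue of newborn lambs. The 10 genes were chosen by name, *ASNS*, *TRIB3*, *CHAC1*, *SESN2*, *PSAT1*, *PHGDH*, *DDIT4*, *ATF5*, *SLC7A11* and *MTHFD2*, and all 10 were found among the 28524 genes of the count table. RNA was sequenced from BAT around the kidneys and from the thyroid of 15 Romney lambs, so that each lamb gave 2 libraries and the table held 30. Lambing was outdoors. The cold group of 6 lambs was then penned at 4 °C over 2 days, and the ambient temperature (AT) group, also of 6, at 20–22 °C over the same time. The control group of 3 was sampled before any exposure, at no more than about 24 h of age. Each lamb was a twin, with 1 taken per dam, and treated lambs stayed with their dams. Against the controls both treated groups were also older, so that age and treatment cannot be told apart there. Only cold against AT compared lambs of one age. The lambs are numbered here within their group, and the comparisons used Control 1 and Control 3, the 2 controls that the study kept; Control 2, which it left out as an outlier, was added back as an alternative. Measurements of both tissues are on bulk tissue, in which fewer cells of a type and less RNA per cell cannot be told apart.

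The response works through translation. When amino acids, folded protein, haem or viral RNA become a problem, a kinase (*EIF2AK4*, also called GCN2, *EIF2AK3*, also called PERK, *EIF2AK1* or *EIF2AK2*) phosphorylates the initiation factor eIF2, most protein synthesis slows, and the *ATF4* mRNA is translated more. ATF4 protein then binds the promoters of its targets. The level of *ATF4* mRNA is therefore not a measure of ATF4 protein, and the targets are often read in its place. Some targets make amino acids or bring them in: *ASNS* makes asparagine, *PHGDH* and *PSAT1* catalyse the first and the second step of serine synthesis, *MTHFD2* works in the mitochondrial folate cycle that serine feeds, and *SLC7A11* imports cystine. Others hold growth back or end the response: *SESN2* and *DDIT4* restrain mTORC1, the kinase complex that promotes growth when nutrients are plentiful, and *TRIB3* is a pseudokinase that feeds back on ATF4. *CHAC1* degrades glutathione, and *ATF5* is a further transcription factor, which is active in mitochondrial stress. In BAT such a response has been described when mitochondria are stressed, and in the thyroid the secretory load of thyroglobulin makes endoplasmic reticulum stress a common subject.

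In the genome build Oar_rambouillet_v1.0, to which the reads had been aligned, *ASNS* lies on chromosome 4 from 17075739 to 17227746, *TRIB3* on chromosome 13 from 62964396 to 62975830, *CHAC1* on chromosome 7 from 36476118 to 36478554 and *SESN2* on chromosome 2 from 254621612 to 254639743. *PSAT1* lies on chromosome 2 from 62189168 to 62217127, *PHGDH* on chromosome 1 from 102061438 to 102092417, *DDIT4* on chromosome 25 from 29394565 to 29396690 and *ATF5* on chromosome 14 from 59703025 to 59710218. *SLC7A11* lies on chromosome 17 from 20922616 to 21308560 and *MTHFD2* on chromosome 3 from 102336489 to 102368333. The counts belong to the exons of each gene. *ATF5* shares 75 exon bases with *NUP62* on the other strand and *SLC7A11* shares 166 exon bases with *LOC114108896*, and the strand setting of the counting was not given, so that reads from these stretches are uncertain.

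BAT libraries summed to 31556500 to 37025998 counts each, and those of thyroid to 25062784 to 30124871. In BAT, *LOC114112617* and *LOC114115287* took 43.8% to 76.5% of the counts, which left between 8093700 and 18276329 counts for the other genes. The tissues matched their labels: thyrocyte markers such as *TG* and *TSHR* summed to at least 1245755 normalized counts in every thyroid library and to at most 1143 in any BAT library. Brown adipocyte markers, *UCP1* among them, summed to between 744 and 16727 in BAT of treated lambs against 23065 and 26914 in the 2 controls used. *UCP1* made up most of the sum in those controls, at 20587 and 22462. A thyroid library of the AT group, that of lamb AT 3, stood apart. Its skeletal muscle markers (*ACTA1*, *MYH1*, *MYH2*, *MYLPF*, *TNNT3*, *CKM* and *MYL1*) summed to 3609168 normalized counts, against 95.8 to 4126 in the other 11 treated lambs, and its thyrocyte markers had the lowest sum of all 15. Control 1 also held muscle markers in its thyroid library, at 295675, and Control 2 held parathyroid markers, at 9217 against at most 1253 in the other lambs. Results of the members in thyroid are given with and without AT 3, and for some genes with other choices of controls. Calls of other thyroid genes against the controls rest on Control 1 and Control 3 unless another choice is named.

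Values are normalized counts, the counts of a library divided by a size factor from the reference genes *ACTB*, *RPL19* and *HUWE1*, unless another scale is named. Divided by exon length, the order of the median levels over the 15 BAT libraries ran from *DDIT4* at 819 normalized counts per kb over *TRIB3* (172), *ATF5* (96.8), *ASNS* (85.3), *MTHFD2* (64.8), *PHGDH* (47.5), *SESN2* (40.9) and *PSAT1* (16.4) down to *CHAC1* (3.05) and *SLC7A11* (0.18). In thyroid the order was *DDIT4* (1388 per kb), *PSAT1* (291), *ATF5* (197), *ASNS* (136), *MTHFD2* (65.4), *PHGDH* (51.2), *SESN2* (23.7), *CHAC1* (17.3), *TRIB3* (8.24) and *SLC7A11* (1.17). *DDIT4* led in both tissues. *TRIB3*, next to it in BAT, was next to last in thyroid, and *PSAT1* went the other way. The ranges over the 15 lambs of every pair of neighbours in these orders overlapped, in BAT and in thyroid.

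**Figure D1:**
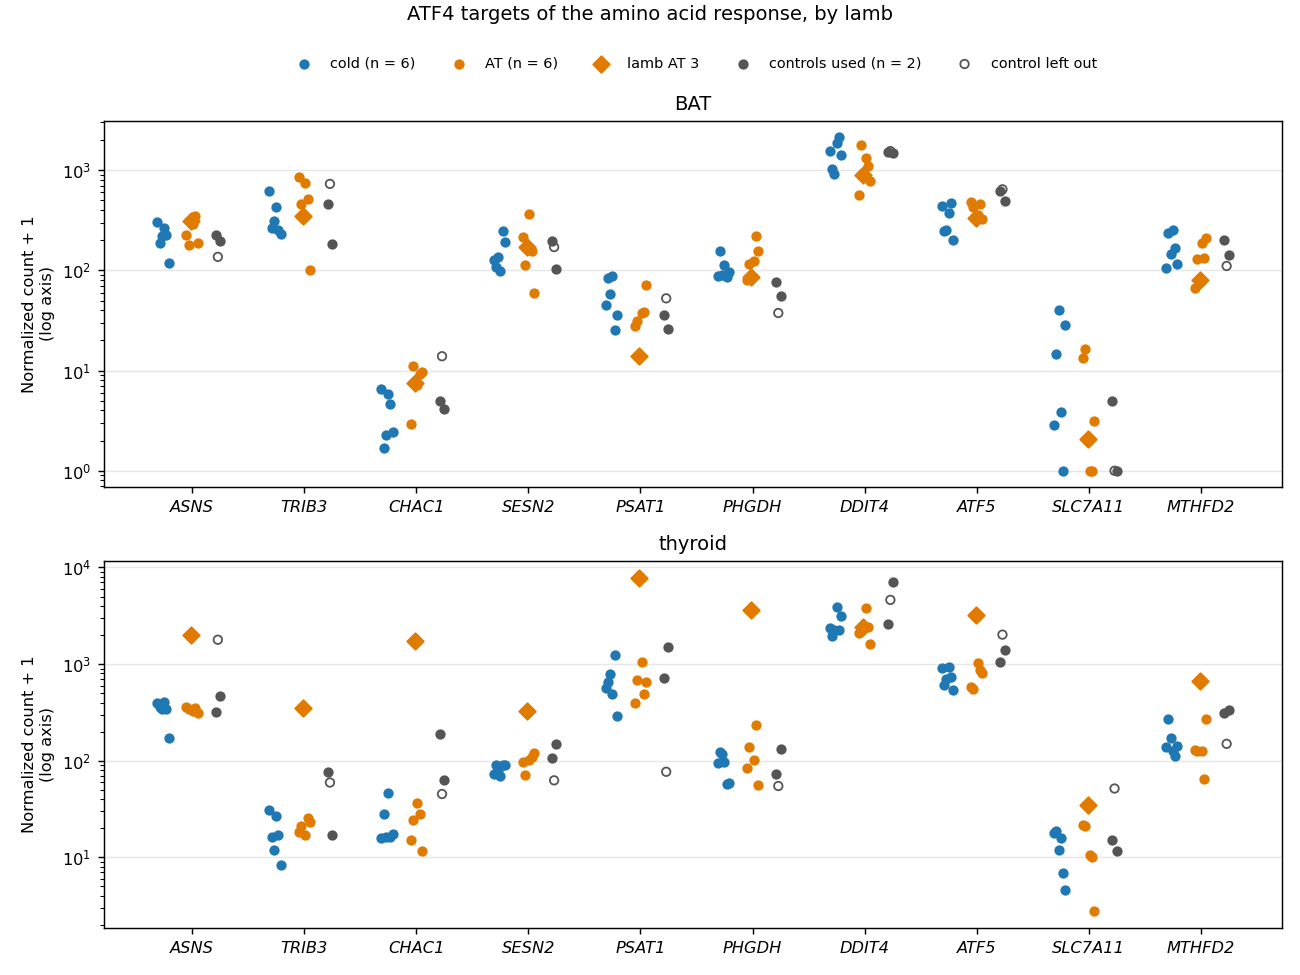
Normalized counts plus 1 on a log axis of the 10 ATF4 targets in each lamb, BAT above and thyroid below; every point is 1 library, filled grey points are the 2 controls used and the open circle is the left-out control. In thyroid the diamond of lamb AT 3 lies above all other treated lambs for 9 of the 10 genes, and in BAT the same lamb is the highest for none of the 8 genes tested.

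In thyroid 1 lamb stood apart from the others in most of these genes. In the thyroid of lamb AT 3, the serine synthesis genes reached levels seen in no other lamb. *PHGDH* was at 3622 there, against 55.0, 82.5, 101, 137 and 233 in the other 5 AT lambs and 56.0 to 122 in cold. *PSAT1* was at 7841, against 399 to 1063 in the other 5 AT lambs and 288 to 1237 in cold. *PSPH*, which completes serine synthesis and is no member of the group, was at 1754 there, against 49.6 to 109 in the other 11 treated lambs.

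The feedback and glutathione genes stood apart in the same library. *CHAC1* was at 1725 in AT 3, against 10.6 to 35.2 in the other 5 AT lambs and 15.0 to 45.2 in cold. *TRIB3* was at 348 in AT 3, against 16.2 to 24.3 in the other 5 AT lambs and 7.30 to 30.03 in cold. Neither range of the other lambs came near that library. *ASNS* was at 1996 in AT 3 and between 313 and 359 in the other 5 AT lambs. *ATF5* was at 3219 in AT 3, against at most 1030 in the other AT lambs, and *MTHFD2* was at 662, against at most 267. *SESN2* was at 326 against at most 120, and *SLC7A11*, low in all lambs, was at 33.7 against at most 20.6. *DDIT4* was the exception, at 2435 in AT 3 and between 1613 and 3830 in the other 5 AT lambs. *ATF4* mRNA itself was at 20775 in AT 3, against 7857 to 10500 in the other 5.

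Of the 10 members, 9 were highest in AT 3 among the 12 treated thyroid libraries, and 8 exceeded the next library by more than 2 times. Over all 16122 tested thyroid genes AT 3 was the highest treated library for 27.6% and exceeded the next by more than 2 times for 6.53%. Other genes of the pathway were taken from lists written for this report. AT 3 was the highest for 8 of 8 genes of amino acid synthesis and folate, with *PSPH*, *ALDH1L2* and *PYCR1* over 2 times the next library, and for 6 of 7 amino acid transporters, with *SLC3A2*, *SLC7A1* and *SLC38A2* over 2 times. Among endoplasmic reticulum stress genes outside the ATF4 arm it was the highest for 2 of 8, and for none of these over 2 times the next. It was also the highest for 6 of 6 genes of mitochondrial stress, with *HSPA9* over 2 times the next, and for 4 of 7 hypoxia targets, with *BNIP3* and *EGLN3* over 2 times. It was the highest for 2 of 7 NRF2 targets and for 0 of 5 glucocorticoid targets. In the BAT library of the same lamb, 0 of the 8 tested members were highest, where 2.95% of all tested genes were.

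All 7 muscle markers moved with this library, each above the highest other treated lamb, and their part in the result was not tested. Control 1, with muscle markers at 295675, had *PHGDH* at 71.7 and *PSAT1* at 725, both within the range of the other lambs. Its *CHAC1* (188) and *TRIB3* (74.9) were the highest of all thyroid libraries but AT 3. Control 2, with muscle markers at 3826, had *ASNS* at 1786 and the lowest *PSAT1* of all, 75.9.

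**Figure D2:**
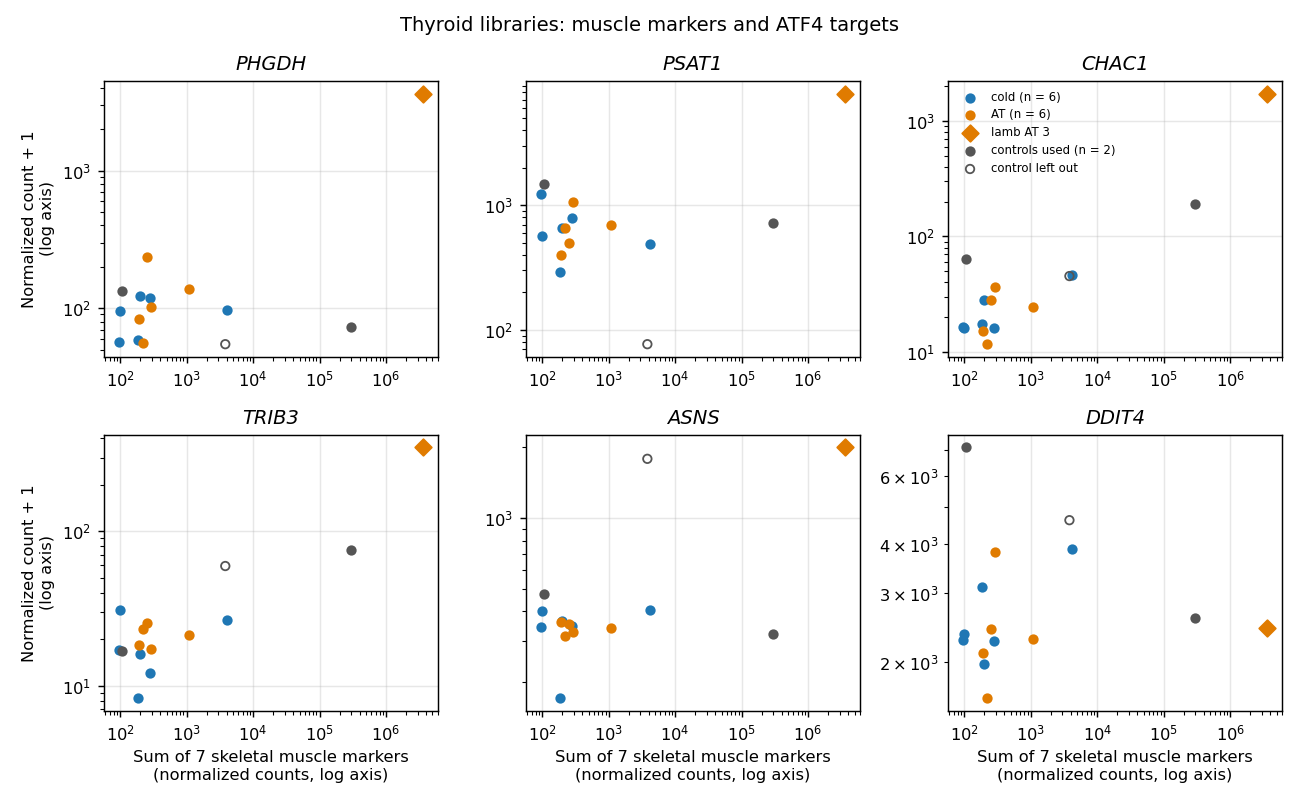
Each of the 15 thyroid libraries by the summed normalized counts of 7 skeletal muscle markers (horizontal, log axis) and the normalized count plus 1 of 6 ATF4 targets (vertical, log axes). Lamb AT 3 (diamond) is at the far right in all panels and at the top in 5 of them, *DDIT4* being the exception. Control 1, second in muscle markers, is within the range of the others for *PHGDH* and *PSAT1* and second to AT 3 for *CHAC1* and *TRIB3*.

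Correlations between members over the 12 treated lambs moved with this library too, and they are given as a description. In thyroid the median Pearson r over the 45 pairs of members was 0.69, and 22 pairs were above 0.7. Without AT 3 the median was 0.08, and 2 pairs were above 0.7. Over all pairs of tested thyroid genes the median r was 0.07 with AT 3 and 0.09 without it. Above 0.7 were 4.36% of all pairs with AT 3 and 4.41% without it, beside 48.9% and 4.44% of the member pairs. In BAT the 28 pairs of the 8 tested members had a median r of 0.04, where all tested genes had 0.18. The genes whose thyroid pattern was most like that of *ASNS* over the 12 lambs were *RRAS* (r = 0.99), *NXN* (0.97), *TRIB3* (0.97), *TUBB6* (0.96) and *MRPL55* (0.96), and without AT 3 they were *ATOH8* (0.93), *RPS6KA2* (0.93), *RRAS* (0.91), *MCUB* (0.88) and *RHBDL2* (0.87). In BAT they were *NUCKS1* (0.92), *AP2S1* (0.90), *C3H9orf78* (0.89), *TMEM107* (0.89) and *POP1* (0.88), and no member was among them. All these values share the same size factors.

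Cold against AT, the comparison of lambs of one age, asked whether temperature itself moved the targets. No member was called in BAT or in thyroid, where called means an absolute log2 fold change (log2FC) of at least 1 and an adjusted p under 0.05. In BAT 0 of the 8 tested members were called by edgeR and 0 by DESeq2, 0 had an unadjusted p under 0.05, and 0.275% of all tested genes were called. *CHAC1* and *SLC7A11* had too few reads in BAT to be tested. In thyroid 0 of 10 were called by edgeR and 0 by DESeq2, 4 had an unadjusted p under 0.05, and the share of all tested genes called was 0%, or 0 genes, with 870 at an unadjusted p under 0.05 and 2 called by DESeq2.

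In BAT the largest difference between cold and AT among tested members was that of *PSAT1*, the second enzyme of serine synthesis. It was between 24.7 and 87.8 in cold with a median of 50.9, and between 12.9 and 71.1 in AT with a median of 33.5. The groups overlapped, and its log2FC was 0.61 ± 0.38 (SE, n = 6 and 6; edgeR adjusted p = 0.52). *TRIB3* had a log2FC of −0.53 ± 0.41 and *DDIT4* one of 0.47 ± 0.26, both within 2 SE of 0. *CHAC1*, at 0.679 to 5.58 in cold and 1.91 to 10.03 in AT, overlapped between the groups and differed in the mean of log2(normalized count + 1), with an exact permutation p of 0.035 (2-sided, 924 splits, unadjusted). Its values rest on few reads per library.

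In thyroid the cold and AT groups differed mainly through AT 3. The log2FC of *CHAC1* in cold against AT was −3.76 ± 1.34 with all lambs (edgeR adjusted p = 0.91) and 0.02 ± 0.42 without AT 3. That of *PHGDH* went from −2.96 ± 1.03 to −0.43 ± 0.35, and that of *PSAT1* from −1.47 ± 0.74 to 0.02 ± 0.35. Without AT 3 the log2FC of the 9 members that could still be tested lay between −0.43 and 0.16, and 0 were called. *SESN2* was at 68.8 to 90.4 in cold, with a median of 83.4, and at 70.9 to 326 in AT, with a median of 104. By the exact permutation test this difference had a p of 0.041 (924 splits, unadjusted), and without AT 3 its log2FC was −0.29 ± 0.19.

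In BAT against the controls, cold and AT share the same 2 control libraries, so their values stand side by side and are not independent. No member was called in either. In cold 0 of 8 were called by edgeR and by DESeq2, with 1 at an unadjusted p under 0.05, and 1.21% of all tested genes were called. In AT 0 of 8 were called by edgeR and by DESeq2, with 1 at an unadjusted p under 0.05, and 6.07% of all tested genes were called. The median log2FC of the 8 members was 0.05 in cold and 0.28 in AT, beside −0.10 and −0.03 over all tested genes.

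*PHGDH*, the entry enzyme of serine synthesis, was the member of BAT with the largest difference in AT. It was at 78.3, 85.8, 114, 123, 155 and 220 in the AT lambs and at 85.7 to 155 in cold, against 54.6 and 74.9 in the 2 controls used and 36.6 in Control 2. All 12 treated lambs were above all 3 controls. The log2FC was 1.0 ± 0.38 in AT (edgeR adjusted p = 0.11) and 0.69 ± 0.38 in cold (adjusted p = 0.35). With all 3 controls it was 1.27 ± 0.35 in AT, and *PHGDH* was then called (edgeR adjusted p = 0.027), where 5.74% of all tested genes rose. It was also called with Control 2 in the place of Control 1, at 1.55 (edgeR adjusted p = 0.030), but not with Control 2 in the place of Control 3, at 1.28 (adjusted p = 0.065). The exact permutation p was 0.071 in each of cold and AT with the 2 controls used, where 28 splits allow none under 0.036. The summed brown adipocyte markers, mostly *UCP1* in the controls, were lower in treated lambs, as given above. *CIDEA* and *PRDM16* of that list reached 4226 and 364 in treated lambs, against at most 2131 and 131 in the controls. Fibroblast markers summed to 26265 to 143556 in treated lambs, against 22831 and 23823 in the controls used and 38454 in Control 2. The part of these markers in this difference was not tested.

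*ATF5* showed the opposite order. It was between 202 and 466 in cold and between 322 and 481 in AT, below the controls at 491, 614 and 643. No treated lamb reached the control range. The log2FC was −0.74 ± 0.28 in cold (edgeR adjusted p = 0.16) and −0.48 ± 0.28 in AT (adjusted p = 0.29), and the exact permutation p was 0.11 in cold and 0.071 in AT. *PSAT1* had a log2FC of 0.90 ± 0.57 in cold and 0.29 ± 0.56 in AT, and *TRIB3* had 0.12 ± 0.59 and 0.65 ± 0.60. The remaining tested members, *ASNS*, *SESN2*, *DDIT4* and *MTHFD2*, lay between −0.49 and 0.28 in both comparisons, with SE from 0.31 to 0.52. *CHAC1* was at 3.12 and 4.01 in the controls used and at 0.679 to 10.03 in treated lambs, and *SLC7A11*, at 0 to 39.0 in treated lambs, was at 0 in 2 of the 3 controls.

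In thyroid no member was called against the controls used when all 12 treated lambs were fitted. With all 12 treated lambs, 0 of 10 members were called by edgeR and by DESeq2 in cold, with 1 at an unadjusted p under 0.05, and 8.04% of all tested genes were called. In AT 0 of 10 were called by edgeR and by DESeq2, with 1 at an unadjusted p under 0.05, and 7.8% of all tested genes were called. In cold all 10 members had a log2FC below 0, with a median of −0.73 beside −0.28 over all tested genes. Under TMM scaling the median of all tested genes was 0.02, and *ASNS*, *PHGDH* and *SLC7A11* were then above 0. In AT 7 of 10 members were above 0, with a median of 0.48, and without AT 3 8 of the 9 tested were below 0, with a median of −0.75.

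The 3 groups share 1 estimate of the spread, and the SE of *CHAC1* in cold was 1.58 with AT 3 in the fit. Without it *CHAC1*, the glutathione-degrading enzyme, fell in cold (log2FC −2.49 ± 0.50, edgeR adjusted p = 0.0023) and in AT (−2.51 ± 0.52, adjusted p = 0.0024). Its normalized counts were 188 and 62.2 in the controls used and 44.3 in Control 2, against 15.0 to 45.2 in cold and 10.6 to 35.2 in the 5 AT lambs. All but 1 of these 11 treated lambs were below the lowest control, and the exception, Cold 4, was at 45.2. Control 1 was the highest of the controls, and with Control 2 in its place and AT 3 in the fit the log2FC of *CHAC1* in cold moved from −2.48 to −1.25 (edgeR adjusted p = 0.65). *MTHFD2*, the mitochondrial folate enzyme, fell in AT without AT 3 (−1.19 ± 0.41, edgeR adjusted p = 0.037). It was at 312 and 335 in the controls used, 149 in Control 2 and 63.9 to 267 in those 5 lambs. The share of all tested genes that fell without AT 3 was 8.48% in cold and 10.5% in AT, beside 1 of 9 and 2 of 9 members. AT 3 was set apart after the data had been seen, and it was the highest treated lamb for *CHAC1* and *MTHFD2*. The calls in AT without it are therefore not independent of that choice and are given as a description.

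With all 3 controls and without AT 3, more members were called. In cold *CHAC1* (−2.14 ± 0.50), *TRIB3* (−1.51 ± 0.45), *ASNS* (−1.35 ± 0.39) and *ATF5* (−1.02 ± 0.24) fell, 4 of 10 members, with edgeR adjusted p between 0.0079 and 0.028, where 7.71% of all tested genes fell. In AT *CHAC1* (−2.15 ± 0.52) and *ASNS* (−1.33 ± 0.41) fell, 2 of 10, where 7.49% of all tested genes fell. The call of *ASNS* rests on Control 2, at 1786 against 320 and 471 in the other controls, and with those 2 its log2FC was −0.24 ± 0.26 in cold. *CHAC1* was the only member called in both comparisons under both choices of controls once AT 3 was left out.

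By the exact permutation test on all 6 cold lambs and the controls used, *CHAC1*, *SESN2*, *ATF5* and *MTHFD2* had a p of 0.036, the smallest that 28 splits allow (unadjusted). None of the 4 overlapped between the groups. This test uses no fitted estimate of the spread, but it takes lambs as exchangeable between the groups, equal spread included. The exact test was run on the members and *ATF4* only, so the share of all genes that reach this p or do not overlap is not known. By edgeR 1 of 10 members had an unadjusted p under 0.05 in this comparison, beside 5719 of all 16122 tested genes. With all 3 controls *ATF5* did not overlap (exact permutation p = 0.012, the smallest of 84 splits). The other 3 overlapped, with exact permutation p of 0.024 for *CHAC1*, 0.071 for *MTHFD2* and 0.27 for *SESN2*.

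*DDIT4*, the mTORC1 inhibitor, had nearly the same log2FC with and without AT 3. It was at 1967 to 3892 in cold and 1613 to 3830 in AT, against 2585 and 7092 in the controls used and 4615 in Control 2. The groups overlapped. Its log2FC was −0.87 ± 0.34 in cold (edgeR adjusted p = 0.085) and −0.98 ± 0.34 in AT (adjusted p = 0.053), and it passed the threshold in both when Control 2 replaced Control 1, at −1.14 and −1.25. When Control 2 replaced Control 3 it was at −0.45 (edgeR adjusted p = 0.35) and −0.56 (adjusted p = 0.25). Under TMM it was at −0.52 and −0.60. *SESN2*, *PSAT1* and *SLC7A11* were not called under any of these choices, and neither was *PHGDH*, whose log2FC in AT went from 2.79 ± 1.63 with AT 3 to 0.26 ± 0.50 without it. Thyrocyte markers summed to 2692264 and 5482704 in the controls used, to 1605091 in Control 2 and to 1675213 to 2583657 in the treated lambs other than AT 3, and fibroblast markers summed to 10290 and 12749 in the controls used, 20590 in Control 2 and 24494 to 115760 in the treated lambs; their part in these differences was not tested.

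**Figure D3:**
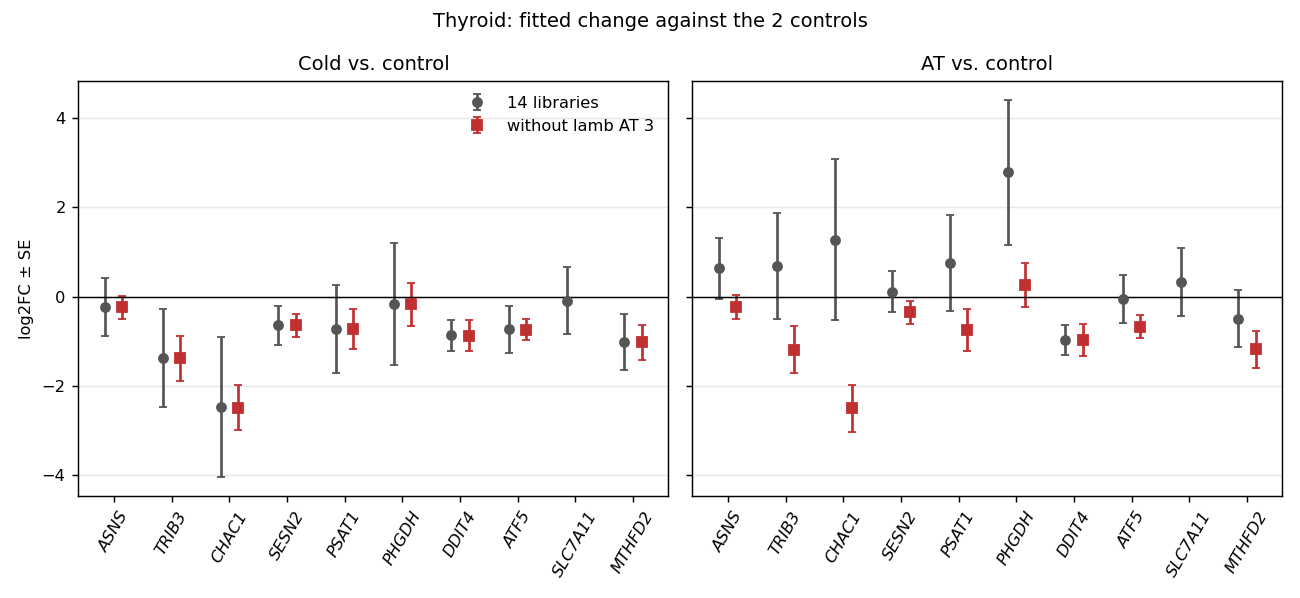
Fitted log2FC with its SE of each member in thyroid against the 2 controls used, for cold (left) and AT (right), with all 14 libraries (grey circles) and without lamb AT 3 (red squares). Leaving out AT 3 narrows the SE of *CHAC1* from 1.58 to 0.50 in cold and moves it from 1.28 to −2.51 in AT; *SLC7A11* has no red square because it then had too few reads to be tested.

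The mRNA of *ATF4* itself was below all 3 controls in every treated library of both tissues but the thyroid of AT 3, which at 20775 was above both controls used. In thyroid it was at 17432 and 19628 in the controls used and 26364 in Control 2, and at 7046 to 10128 in cold, with no overlap. In cold it fell (log2FC −1.12 ± 0.29, edgeR adjusted p = 0.019), and in AT the log2FC was −0.80 ± 0.30 (adjusted p = 0.069) with AT 3 and −1.11 without it, where it fell (adjusted p = 0.00023). In BAT *ATF4* was at 6040, 7312 and 10933 in the 3 controls and at 3439 to 5250 in the 12 treated lambs, again without overlap. There the log2FC of −0.75 ± 0.20 in AT (edgeR adjusted p = 0.029) and −0.54 ± 0.20 in cold (adjusted p = 0.17) stayed under the size required for a call. Under TMM scaling *ATF4* in thyroid was at −0.84 in cold and −0.51 in AT and was not called in either.

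Of the 4 kinases upstream, *EIF2AK3*, the sensor of unfolded protein in the endoplasmic reticulum, fell in thyroid in cold (−1.10 ± 0.18, edgeR adjusted p = 0.0025) and in AT (−1.23 ± 0.18, adjusted p = 0.0013). It was at 771 and 1111 in the controls used but at 399 in Control 2, within the range of the treated lambs (328 to 484), and with all 3 controls it was not called in either. *EIF2AK4*, the sensor of uncharged tRNA, had a log2FC of −0.21 ± 0.14 in both thyroid comparisons and −0.03 ± 0.31 and 0.35 ± 0.32 in BAT. *EIF2AK1* and *EIF2AK2* were not called in either tissue with the controls used and the reference genes as scale. With all 3 controls *EIF2AK2*, the sensor of double-stranded RNA, rose in BAT in cold (2.07) and in AT (1.58). Under TMM with the controls used it rose in BAT in cold (1.91, edgeR adjusted p = 0.046). *DDIT3* (CHOP), a transcription factor of prolonged stress, fell in thyroid in cold (−1.11 ± 0.26, adjusted p = 0.011), and in AT its log2FC was −0.92 ± 0.26. Under TMM it was at −0.79 in cold and not called. In BAT it was at 135 to 209 in treated lambs and at 186 and 203 in the controls used.

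Some other ATF4 targets fell in thyroid, fewer of them under TMM scaling. In cold the amino acid transporters *SLC7A1*, *SLC7A5* and *SLC1A5* fell, 3 of 7 tested, with log2FC of −2.14, −1.67 and −1.38, and so did the synthesis enzymes *PYCR1* (−2.27), *CTH* (−1.87) and *ALDH18A1* (−1.31), 3 of 8 tested, where 6.15% of all tested genes fell. Under TMM *SLC7A1* and *CTH* fell, and *SLC7A5* (edgeR adjusted p = 0.068), *SLC1A5* (0.15), *PYCR1* (0.070) and *ALDH18A1* (log2FC −0.97) were not called. In AT *SLC7A1*, *CTH* and *ALDH18A1* fell and *ALDH1L2*, of the mitochondrial folate cycle, rose (1.96, and 1.48 without AT 3), where 5.98% of all tested genes fell and 1.82% rose. Under TMM *ALDH1L2* rose (2.26), and *SLC7A1* (edgeR adjusted p = 0.11), *CTH* (0.073) and *ALDH18A1* (log2FC −0.93) were not called. *ALDH1L2* was at 64.1, 66.1 and 47.4 in the controls and at 92.4 to 276 in the treated lambs other than AT 3, without overlap. Of the transcription factors, 5 of 7 fell in cold and 3 of 7 in AT. Without AT 3 these counts were 6 and 5, where 8.48% and 10.5% of all tested genes fell. Under TMM they were 1 and 0, where 2.08% and 1.67% fell.

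Genes of the endoplasmic reticulum outside the ATF4 arm fell the most often. In thyroid 7 of 8 fell in cold and 8 of 8 in AT, among them the chaperone *HSPA5* (−2.79 ± 0.50 and −2.74 ± 0.51), with list medians of −2.11 and −2.06 beside −0.28 over all genes in each. Over all tested genes 6.15% fell in cold and 5.98% in AT. Under TMM 6 of 8 fell in each, where 2.08% and 1.67% of all tested genes fell. With all 3 controls 6 of 8 fell in each, where 6.09% and 4.91% fell. *HSPA5* was at 63874 in Control 3, 11501 in Control 1 and 7303 in Control 2, and at 2744 to 9183 in treated lambs, so that Control 2 lay within their range. In BAT 2 of 8 fell in cold (*HYOU1* and *HSPA5*) and 4 of 8 in AT, where 0.637% and 3.21% of all tested genes fell. *HSPA5* there was at 4767 and 5086 in the controls used and at 82208 in Control 2, against 703 to 2434 in treated lambs.

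**Figure D4:**
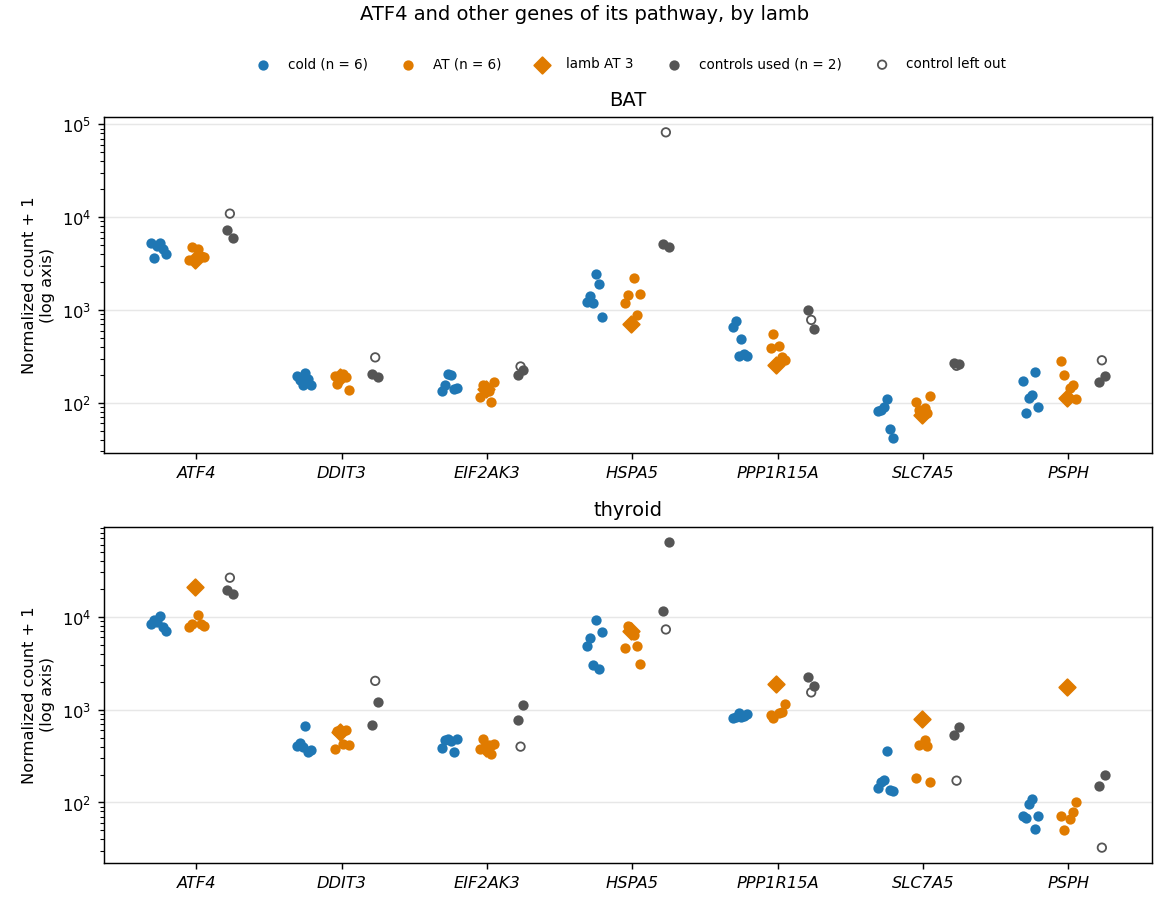
Normalized counts plus 1 on a log axis of *ATF4*, *DDIT3*, *EIF2AK3*, *HSPA5*, *PPP1R15A*, *SLC7A5* and *PSPH* in each lamb, BAT above and thyroid below, with the symbols of the plot of the 10 targets. *ATF4* and *SLC7A5* in BAT separate treated lambs from all 3 controls, and in thyroid lamb AT 3 (diamond) lies with the controls for *ATF4* and far above all others for *PSPH*.

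In BAT several genes of the lists were called against the controls used. The leucine transporter *SLC7A5* fell in cold (−1.81 ± 0.29, edgeR adjusted p = 0.011) and in AT (−1.55 ± 0.30, adjusted p = 0.0072), from 250, 263 and 265 in the 3 controls to 40.8 to 118 in treated lambs, with no overlap. It was the only transporter of 8 tested that was called in either, where 0.637% of all tested genes fell in cold and 3.21% in AT. The paralogs of *SESN2*, both known as inhibitors of mTORC1, rose in AT: *SESN3* by 1.61 ± 0.30 and *SESN1* by 1.45 ± 0.33 (edgeR adjusted p = 0.0068 and 0.015), while *SESN2* had a log2FC of 0.27 ± 0.52. With all 3 controls *SESN3* rose, and *SESN1* was at 0.72 and not called. Under TMM with the controls used *SESN3* also rose in cold, in BAT (1.32, edgeR adjusted p = 0.037) and in thyroid (1.12, adjusted p = 0.0084). On the reference scale neither was called. *GPT2*, which makes alanine and glutamate interconvert with pyruvate and 2-oxoglutarate in mitochondria, rose in AT (2.77 ± 0.63, adjusted p = 0.015), as did *ALDH1L2* (1.07 ± 0.30, adjusted p = 0.035). Over all tested genes 2.86% rose in AT. Between cold and AT 1 gene of the lists was called in BAT, where 0.275% of all tested genes were. This was *NQO1*, a target of the oxidative stress factor NRF2, which was higher in cold (1.05 ± 0.20, adjusted p = 0.037). It was at 170 to 328 in cold and 99.3 to 143 in AT, without overlap, and with all 3 controls in the fit it was not called (adjusted p = 0.12).

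The remaining lists were smaller or moved less. In thyroid 2 of 7 NRF2 targets fell in cold and 3 of 7 in AT, 2 and 1 of 7 hypoxia targets, 1 and 1 of 6 genes of mitochondrial stress (*HSPD1*), 1 and 1 of 5 secreted and other targets (*HERPUD1*), and 1 and 0 of 2 phosphatase subunits of eIF2 (*PPP1R15A*). The share of all tested thyroid genes that fell was 6.15% in cold and 5.98% in AT. Under TMM 2 NRF2 targets and *HERPUD1* fell in each, and *HSPD1*, *PPP1R15A* and the hypoxia targets were no longer called as fallen. Those shares were then 2.08% and 1.67%. Of 5 glucocorticoid targets, 0 were called in thyroid or in BAT with the controls used. In BAT 1 and 2 of 7 hypoxia targets fell (*VEGFA*, and in AT also *EGLN3*), where 0.637% and 3.21% of all tested genes fell. *VEGFA* in BAT was at 9413 in Control 1, 2859 in Control 3 and 1420 in Control 2, and with all 3 controls it was not called in either. *PPP1R15A* fell in AT in BAT (−1.14), and under TMM it was not called (edgeR adjusted p = 0.064). With the reference genes as scale, in the lists of kinases, transcription factors, secreted targets, mitochondrial stress and NRF2 targets 0 genes were called in BAT against the controls used.

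Between the tissues of the same lamb 6 of 10 targets were called, where 40.9% of all tested genes were. Both tissues were fitted together for this, with the lamb as a block and size factors set over both. Averaged over the 12 treated lambs, 4 of 10 members were higher in BAT, where 27.7% of all tested genes were, and 2 of 10 were higher in thyroid, where 13.2% of all tested genes were. The latter count includes *CHAC1*, which had too few reads in BAT to be tested there. *TRIB3* differed the most. It had a median of 642 in BAT (168 to 1416) and of 11.8 in thyroid (4.44 to 225), and was higher in BAT in 12 of 12 lambs, by a log2FC of 5.42 ± 0.45 (edgeR adjusted p = 3.9e-08). *SESN2* was also higher in BAT in 12 of 12 lambs, with medians of 231 and 55.0 (log2FC 1.99 ± 0.24, adjusted p = 1e-06).

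*PHGDH* and *PSAT1*, successive enzymes of serine synthesis, went in opposite directions. *PHGDH* was higher in BAT in 11 of 12 lambs, AT 3 being the exception, with medians of 167 and 62.2 (1.32 ± 0.42, edgeR adjusted p = 0.011). *PSAT1* was higher in thyroid in 12 of 12 lambs, with medians of 61.0 in BAT and 395 in thyroid, and ranges of 21.4 to 146 and 175 to 5065 that did not overlap (−2.70 ± 0.44, adjusted p = 5.4e-05). *MTHFD2* was higher in BAT in 11 of 12 lambs, with medians of 218 and 83.6 (1.22 ± 0.28, adjusted p = 0.00084), and fell short of the call under TMM scaling, at 0.98 ± 0.26. *CHAC1* was higher in thyroid in 10 of 12 lambs (−1.41 ± 0.57, adjusted p = 0.034), and without AT 3 it was at −0.94. It had too few reads to be tested in BAT alone and passed the filter of this fit with its thyroid libraries. In BAT it was at 1.13 to 15.9 on this scale, so that its call rests on values near the floor. Leaving out 1 lamb ended its call in 7 of the fits, with an adjusted p of at most 0.070. *ASNS* (0.64 ± 0.18), *DDIT4* (0.33 ± 0.15), *ATF5* (0.16 ± 0.20) and *SLC7A11* (0.36 ± 0.64) were not called, beside a median of 0.36 over all tested genes.

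**Figure D5:**
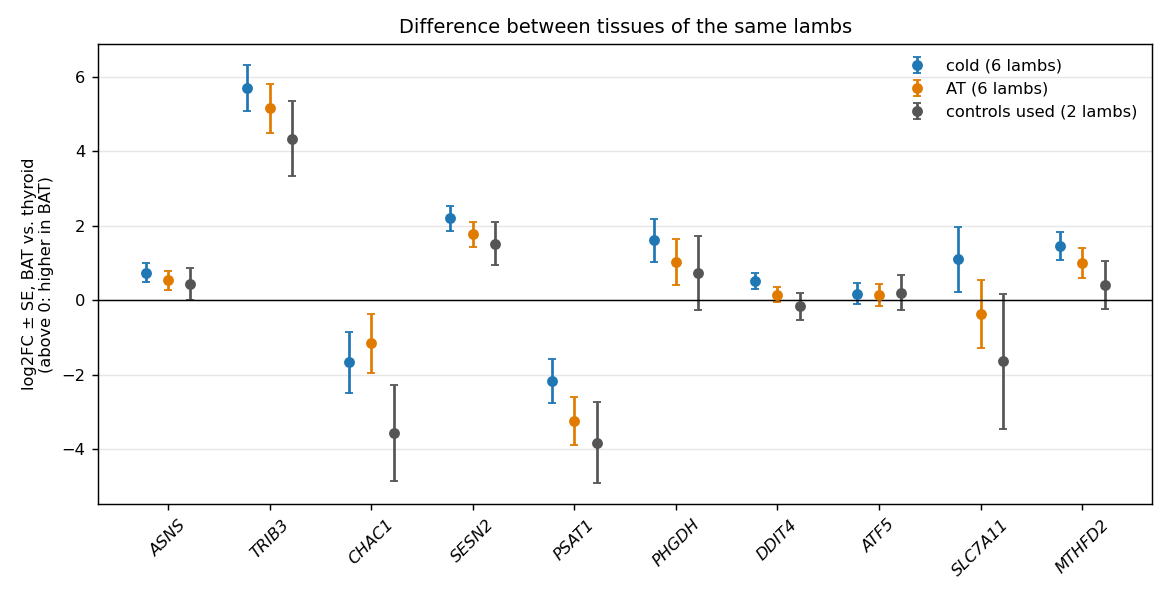
Log2FC with its SE between BAT and thyroid of the same lambs for each member, in cold (blue), AT (orange) and the 2 controls used (grey), from 1 fit of both tissues; values above 0 are higher in BAT. *TRIB3* is above 4 and *PSAT1* below −2 in all 3 groups, and the SE of the controls is the widest for all 10 genes.

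Whether the treatment effect differed between the tissues was tested in the same fit. For cold against control 0 of 10 members were called, where 0.235% of all tested genes were. For AT against control 0 of 10 were called, where 1.4% of all tested genes were, and for cold against AT 0 of 10, where 0.00588% were. No member had an unadjusted p under 0.05 in any of the 3. The tissue difference of *TRIB3* was 5.69 ± 0.62 in cold, 5.15 ± 0.65 in AT and 4.33 ± 1.01 in controls, and that of *PSAT1* was −2.16 ± 0.59, −3.25 ± 0.64 and −3.82 ± 1.09. Without AT 3, *CHAC1* was called in AT against control (3.34 ± 0.85, edgeR adjusted p = 0.039), 1 of 10 members, where 4.37% of all tested genes were called. This call too rests on BAT values of *CHAC1* near the floor.

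With the reference genes as scale, over the 12 treated lambs 0 of 10 members had a correlation between BAT and thyroid that passed after adjustment over the 10. The closest were *ASNS*, with r = 0.57 (permutation p = 0.068, adjusted p = 0.33) and rho = 0.62 (permutation p = 0.038, adjusted p = 0.38), and *PSAT1*, with r = −0.59 (permutation p = 0.047, adjusted p = 0.33) and rho = −0.34 (permutation p = 0.28, adjusted p = 0.69). For *ASNS* r was 0.52 without the 2 lambs farthest from the median in BAT, 0.93 within cold and 0.41 within AT. Under TMM scaling, with the 8 members tested in both tissues, *ASNS* passed by rank, with rho = 0.83 (permutation p = 0.0014, adjusted p = 0.012) and r = 0.70 (permutation p = 0.026, adjusted p = 0.15), and r was 0.71 without the 2 farthest lambs, 0.97 within cold and 0.63 within AT. For *PSAT1* r on the reference scale was 0.02 without AT 3 and Cold 4, its 2 farthest lambs, so that this relation rests on them. Under TMM it was −0.61, and −0.25 without AT 3 and Cold 2. *DDIT4* had r = 0.50 on the reference scale (permutation p = 0.10, adjusted p = 0.33), with 0.49 within cold and 0.48 within AT. Under TMM its r was 0.35. On the reference scale without lamb AT 3, *ASNS* had r = 0.76 (permutation p = 0.012, adjusted p = 0.12), and 0.49 when AT 5 and Cold 6 were left out as well. By rank it then had rho = 0.55 (permutation p = 0.088, adjusted p = 0.44), against 0.62 with AT 3. Cold 6 was far below the other cold lambs for *ASNS* in thyroid, at 170 against 343 to 403, and r within cold was not taken without it.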

How the data were processed

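RNA of BAT and thyroid from 15 lambs (30 libraries) had been purified with oligo(dT) beads and sequenced in pairs. Per the labels and the study's methods, the authors trimmed reads with Trimmomatic 0.39, aligned them with STAR 2.7.7a to Oar_rambouillet_v1.0 and counted them per gene with featureCounts (Subread 2.0.0), multimapping reads included; the deposited values are whole-number counts, not normalized. Whether strand was used is not given in the sources used here. The members and lists were chosen with earlier results of these data known.

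The controls used were identified by proportionality to the study's table of normalized counts. In each tissue the genes that reached 10 reads in 10 libraries or more (14905 in BAT, 16122 in thyroid) were fitted over 3 groups with edgeR 4.0.16 (R 4.3.3, quasi-likelihood, robust), with size factors from 3 reference genes. P-values are 2-sided and Benjamini-Hochberg adjusted over all tested genes, and a gene was called at an absolute log2FC of at least 1 and an adjusted p under 0.05. SE is the log2FC over the root of F. Exact and permutation tests (100000 resamples for correlations, SciPy 1.17.1) used log2(normalized count + 1). The edgeR fits, and not the other tests, were checked on simulated counts, which held no outlying library such as AT 3. The libraries of a lamb carry 1 animal number, which gave the block of the fit of both tissues (17021 genes). Alternatives were TMM, median-of-ratios, DESeq2 1.42.0, all 3 controls, other filters, leaving out each lamb, 2 groups only, the RNA integrity number, and, chosen after seeing the data, leaving out AT 3 together with 3 controls or for correlations. The fit without AT 3 alone is among those that leave out each lamb, and setting it beside the main results was also chosen after seeing the data. Within a tissue, every pair of libraries differed beyond counting error, with a chi-square over its degrees of freedom of at least 29.7. Nothing in the labels says more of the replicates than that they are separate lambs.

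Named genes are the 10 members, *ATF4*, the 4 eIF2 kinases, *DDIT3*, per list and comparison up to 3 called genes with the largest change or else that with the lowest p, and the 5 genes most like *ASNS*; others were named after their values were seen. Chromosome numbers were assigned through gene names shared with the RefSeq table of ARS-UI_Ramb_v3.0, with 22250 names matched; coordinates are those of the deposited file. Other marker sums were, over all 15 lambs, 219 to 255446 (C cell), 1143 and 1236 in the controls used, 1582 in Control 2 and 1560 to 3947 in treated lambs (macrophage), 42.3 to 58.5 in the 3 controls and 71.4 to 653 in treated lambs (T and B cell) and 8215 to 28283 (endothelium) in thyroid, and 25.1 to 2747 (adrenal cortex, highest in Control 2), 2.15 to 37.2 (kidney) and 30964 to 325710 (adipocyte, highest in Control 2) in BAT; their part in the results was not tested. One thyrocyte marker is not reported here and was left out of the sums.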

Additional observations from a re-analysis of the deposited data

Results flagged for a closer look

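In each group of 6 lambs, the gap of the highest or lowest lamb to its nearest neighbour was divided by the range of the group and held against Dixon's 95% critical value. Of 40 groups tested over the 10 genes, 9 were past it. These groups share libraries and are not independent, and the share of all tested genes past the value was not computed. The count therefore says nothing of the members in particular. Over all tested thyroid genes AT 3 was the highest treated library for 27.6%. The thyroid library of lamb AT 3 accounted for 7 of them, as the highest AT lamb: *ASNS* (0.926), *TRIB3* (0.871), *CHAC1* (0.773), *PSAT1* (0.672), *SESN2* (0.658), *PHGDH* (0.657) and *ATF5* (0.650). Lamb Cold 6 was the lowest of the cold lambs for *ASNS* in thyroid (0.815), at 170 against 343 to 403 in the others. Lamb AT 1 was the lowest of the AT lambs for *CHAC1* in BAT (0.676), at 1.91 against 6.16 to 10.03.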

How the results depend on the processing

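The number of members called against the controls used was 0. In BAT AT against control it became 1 with all 3 controls (8.73% of all tested genes were called), and 0 to 1 when each lamb was left out. In thyroid cold against control it was 2 with only the 2 groups in the fit and 0 to 1 when each lamb was left out. With all 3 controls and without AT 3 it was 4 there (10.4% of all tested genes). In thyroid AT against control it was 2 with all 3 controls and without AT 3 (9.79% of all tested genes), and 0 to 2 when each lamb was left out. The share over all genes is not given here for the fits of 2 groups and for most of those with a lamb left out. Those counts therefore say nothing of the members in particular. For the difference between tissues in AT against control it was 0 to 1, and for BAT against thyroid 5 to 6. Where a call was involved, signs turned for *CHAC1* in thyroid AT against control (−2.51 without AT 3, −2.15 with all 3 controls as well, and −2.51 to 2.51 over the lambs left out), *ASNS* there (−1.33 with all 3 controls and without AT 3), *ATF3* there (−2.43 to 0.63, the latter without Control 1), and *VEGFA* in BAT AT against control (−1.67 to 0.075, the latter without Control 1), in thyroid cold (−1.38 to 0.18) and in thyroid AT (−1.24 to 0.35, both highest without Control 3); a control left out was replaced by Control 2, and the causes were not tested. Of member values not called under either choice, 73 of 1196 changed sign with a lamb left out and 38 of 628 under other settings. Without the replicate block, 5 members in place of 6 were called between the tissues, *PHGDH* being at 0.24 (adjusted p = 0.68), and 0 members in each difference between tissues. TMM lowered the calls over all thyroid genes from 1296 to 792 in cold and from 1258 to 744 in AT.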
